A study of Homo sapiens with 12 samples.

Results

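The NRF2 antioxidant genes described here are KEAP1, NFE2L2, GCLM, GCLC, NQO1, TXNRD1, HMOX1, SRXN1, AKR1B10 and AKR1C1. They were chosen by name, with earlier results of these data known. Every probe set annotated to them alone was taken, 24 of the 40914 probe sets that name a single gene. All 10 genes of the list were on the arrays, among 19774 genes in all. Where a gene had several probe sets, the brightest over the 12 arrays was used and the others are reported beside it.

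The study hybridised RNA of the established lines HUTU-80, MDST8 and NCI-H716 to Affymetrix U133 Plus arrays. The labels give all 3 lines as colorectal cancer, of a subtype they call CCS3, and say that they were picked for methylated miR-200 promoters. Lentivirus carried the miR-200c and miR-141 cluster (miR200c141, 4 arrays) or the miR-200b, miR-200a and miR-429 cluster (miR200ba429, 3 arrays), and GFP-positive cells were sorted after 48 hours. Some miR200ba429 cells of MDST8 and NCI-H716 were given the miR200c141 virus 24 hours after the sort and so carried both clusters (2 arrays). Each line had 1 control array (3 arrays). RNA was collected on day 7. HUTU-80 had no cells with both clusters, and its miR200c141 arrays carry the ratios 1:3 and 1:5 in their titles. Neither the meaning of those ratios nor what the control cells received is given in the sources used here. The HUTU-80 miR200c141 arrays were averaged before testing, which left 11 samples. The labels do not say that arrays came from separate cultures, so p-values measure only the spread between these samples, which may be technical.

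NRF2, the protein made from NFE2L2, is a transcription factor that switches on genes for glutathione synthesis, thioredoxin reduction, quinone and carbonyl reduction and haem breakdown. KEAP1 holds NRF2 in the cytoplasm and passes it to a CUL3 ubiquitin ligase, until oxidants or electrophiles modify KEAP1 and NRF2 escapes to the nucleus. It binds antioxidant response elements as a partner of small MAF proteins, while BACH1 occupies the same elements as a repressor. NRF2 is regulated mainly as a protein, so the mRNA levels below do not measure its activity. In human breast cancer cells, miR-200a has been reported to target KEAP1 mRNA.

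The mature microRNAs that the constructs encode are shown so that the seeds held by each construct can be compared (RefSeq, GRCh38.p14). Capitals mark the seed, bases 2 to 8.
hsa-miR-200c-3p: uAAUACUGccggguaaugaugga
hsa-miR-141-3p: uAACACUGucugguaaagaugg
hsa-miR-200b-3p: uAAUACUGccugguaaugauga
hsa-miR-200a-3p: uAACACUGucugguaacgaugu
hsa-miR-429: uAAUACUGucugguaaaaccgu
The miR200c141 microRNAs lie on the plus strand of chromosome 12, at chr12:6963742-6963764 for miR-200c and chr12:6964155-6964176 for miR-141. The miR200ba429 microRNAs lie on the plus strand of chromosome 1, at chr1:1167160-1167181 for miR-200b, chr1:1167916-1167937 for miR-200a and chr1:1169055-1169076 for miR-429. The seed AAUACUG is shared by miR-200c, miR-200b and miR-429, and the seed AACACUG by miR-141 and miR-200a. Each construct therefore held both seeds.

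All values are log2 intensities, so a difference of 1 is a doubling of signal. Values up to 5.429, the brightest of 23 nonspecific control probe sets, were taken as not above background. ZEB1, the main known target of the miR-200 family, lay below the control of its line on all 9 construct arrays, by 0.13 in MDST8 with miR200ba429 and by 1.13 to 2.24 on the others. Of 10 gut epithelial markers, 3 to 4 were above background in HUTU-80 with a construct and 1 in its control, 1 to 2 in MDST8 with a construct and 1 in its control, and 9 in NCI-H716 with a construct and 8 in its control. HUTU-80 and MDST8 controls thus lacked nearly all of these markers, and CDH1, the epithelial cadherin, was below background in all 3 controls. No endothelial marker of 5 passed background anywhere, and of 5 immune markers only LYZ did, in NCI-H716. The 3′ minus 5′ signal of ACTB, a measure of RNA integrity, was 2.019 in MDST8 with both clusters, against at most 1.539 on the other MDST8 arrays. The same measure was 2.626 in NCI-H716 with both clusters, against at most 2.405 on the other NCI-H716 arrays. Cells with both clusters therefore stood apart in this measure in both lines, and its part in the results for both clusters was not tested.

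Taken over construct and control arrays together, all 10 genes differed in level between the lines, as the plot of levels shows. The test held the construct groups as a term and was a limma F test with Benjamini-Hochberg adjustment across the 19774 genes, and adjusted p ran from 3.97e-11 for NQO1 to 9.06e-04 for AKR1B10. The background was high, since 62.1% of all genes passed the same test. Among the widest gaps was that of NQO1, a quinone reductase, at 11.82 ± 0.35 in NCI-H716, 10.52 ± 0.28 in MDST8 and 3.93 ± 0.09 in HUTU-80 (SD, n = 4 arrays each, constructs and control together). NQO1 was not above background on any HUTU-80 array, which bounds its signal at no less than 83.7-fold higher in NCI-H716 and 34-fold higher in MDST8. All 3 NQO1 probe sets, with maxima of 12.12, 12.27 and 10.93, were above background on the 8 arrays of MDST8 and NCI-H716 and on no other.

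**Figure D1:**
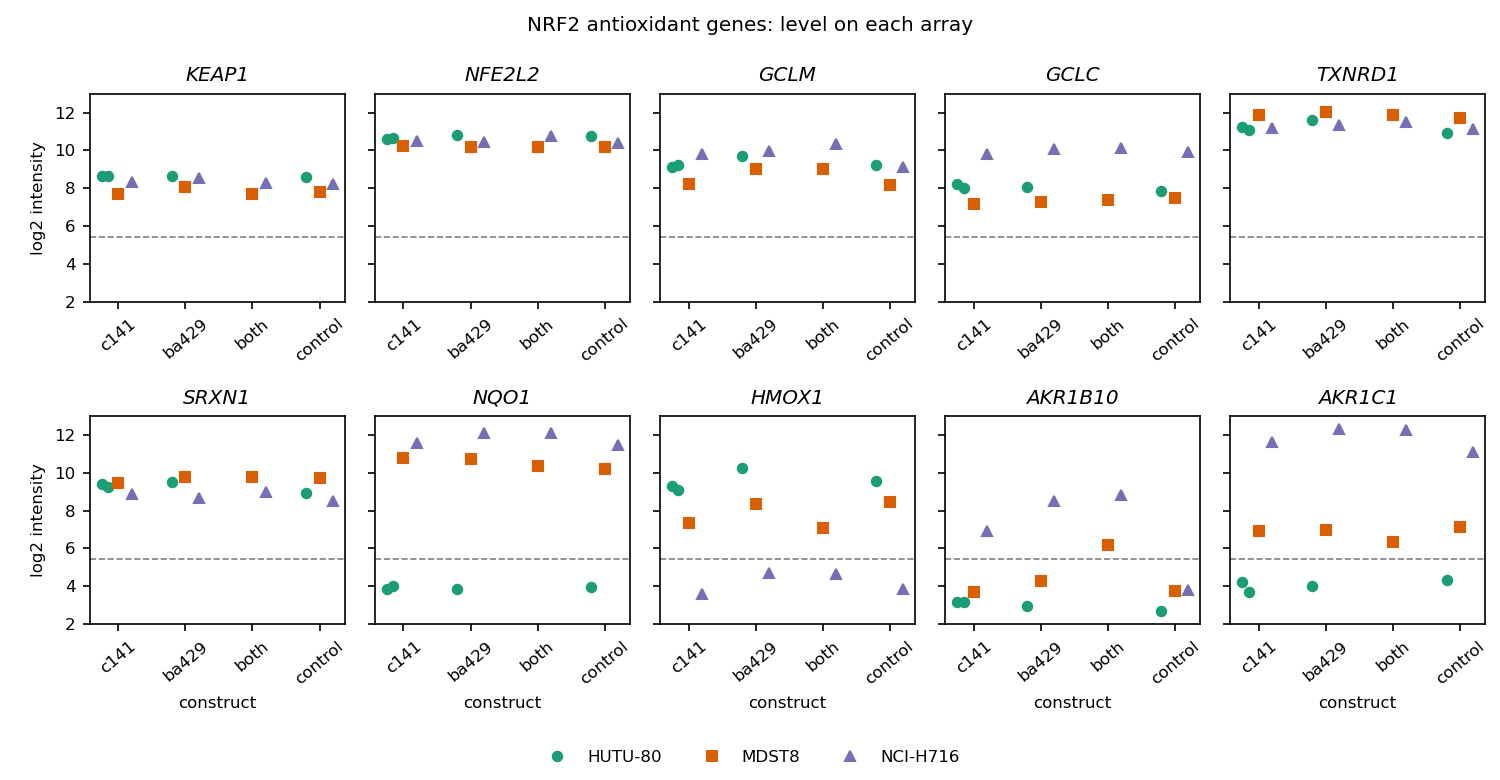
Log2 intensity of the 10 genes on each of the 12 arrays, by cell line, with construct groups left of the control and the dashed line at the background level of 5.429. NQO1 and AKR1C1 lie under the line on every HUTU-80 array, HMOX1 on every NCI-H716 array, and AKR1B10 on every control array.

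AKR1C1, a hydroxysteroid dehydrogenase and aldo-keto reductase, had the same order of lines as NQO1. Its levels were 11.84 ± 0.57 in NCI-H716, 6.84 ± 0.35 in MDST8 and 4.06 ± 0.28 in HUTU-80, where it was not above background (SD, n = 4 each). HMOX1, the haem oxygenase that breaks haem down to biliverdin, ran the opposite way, with HUTU-80 at 9.56 ± 0.50, MDST8 at 7.79 ± 0.69 and NCI-H716 at 4.19 ± 0.57. It was not above background on any NCI-H716 array, so HUTU-80 was at least 17.5-fold and MDST8 at least 5.13-fold higher. GCLC, the catalytic subunit of glutamate-cysteine ligase, was highest in NCI-H716 at 9.98 ± 0.14, with 8.04 ± 0.15 in HUTU-80 and 7.31 ± 0.15 in MDST8. AKR1B10, an aldo-keto reductase that reduces retinal and lipid aldehydes, averaged 7.01 ± 2.29 in NCI-H716, 4.48 ± 1.16 in MDST8 and 3.00 ± 0.24 in HUTU-80. Its large SDs reflect the construct arrays described below. No control array was above background for AKR1B10, so its differences between lines rest on construct arrays.

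The other genes differed less. GCLM, the modifier subunit of glutamate-cysteine ligase, had 9.80 ± 0.52 in NCI-H716, 9.32 ± 0.27 in HUTU-80 and 8.60 ± 0.47 in MDST8. SRXN1, the sulfiredoxin that repairs overoxidised peroxiredoxins, had 9.69 ± 0.15 in MDST8, 9.27 ± 0.27 in HUTU-80 and 8.74 ± 0.22 in NCI-H716, an order that none of the other members shared. TXNRD1, the cytosolic thioredoxin reductase, had 11.86 ± 0.13 in MDST8, 11.29 ± 0.16 in NCI-H716 and 11.20 ± 0.29 in HUTU-80. KEAP1 and NFE2L2 shared an order, with HUTU-80 highest and MDST8 lowest. KEAP1 averaged 8.63 ± 0.03 for HUTU-80, 8.33 ± 0.13 for NCI-H716 and 7.80 ± 0.19 for MDST8. NFE2L2 averaged 10.71 ± 0.11 for HUTU-80, 10.51 ± 0.16 for NCI-H716 and 10.19 ± 0.04 for MDST8. Between neighbours in these orders, 4 gaps did not pass the test. HUTU-80 minus NCI-H716 was 0.27 for KEAP1 (adjusted p = 0.0692), −0.28 for GCLM (adjusted p = 0.1299) and −0.04 for TXNRD1 (adjusted p = 0.7646), and HUTU-80 minus MDST8 was −0.95 for AKR1B10 (adjusted p = 0.2794). In all, 9 of the 10 genes differed between HUTU-80 and MDST8 (43.3% of all genes), 7 between HUTU-80 and NCI-H716 (45.6%) and 10 between MDST8 and NCI-H716 (51.7%). The AKR1B10 differences counted here rest on construct arrays and do not show a difference between control cells.

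Across the constructs, GCLM and AKR1B10 rose in cells with both clusters, and none of the 10 genes passed the test with either cluster alone. Against control, both clusters gave 2 called genes of 10 at an adjusted p under 0.05, both higher, where 6.14% of all genes were called and 2.33% were called higher. The miR200c141 and miR200ba429 constructs gave 0 called genes of the 10 and 0 of 19774, a background of 0%. At an unadjusted p under 0.05, limma counted 0 of the 10 genes with miR200c141 (6.58% of all genes), 3 with miR200ba429 (6.14%) and 4 with both clusters (22%). The comparisons share their control arrays, 1 per line, so an error in a control enters each of them.

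**Figure D2:**
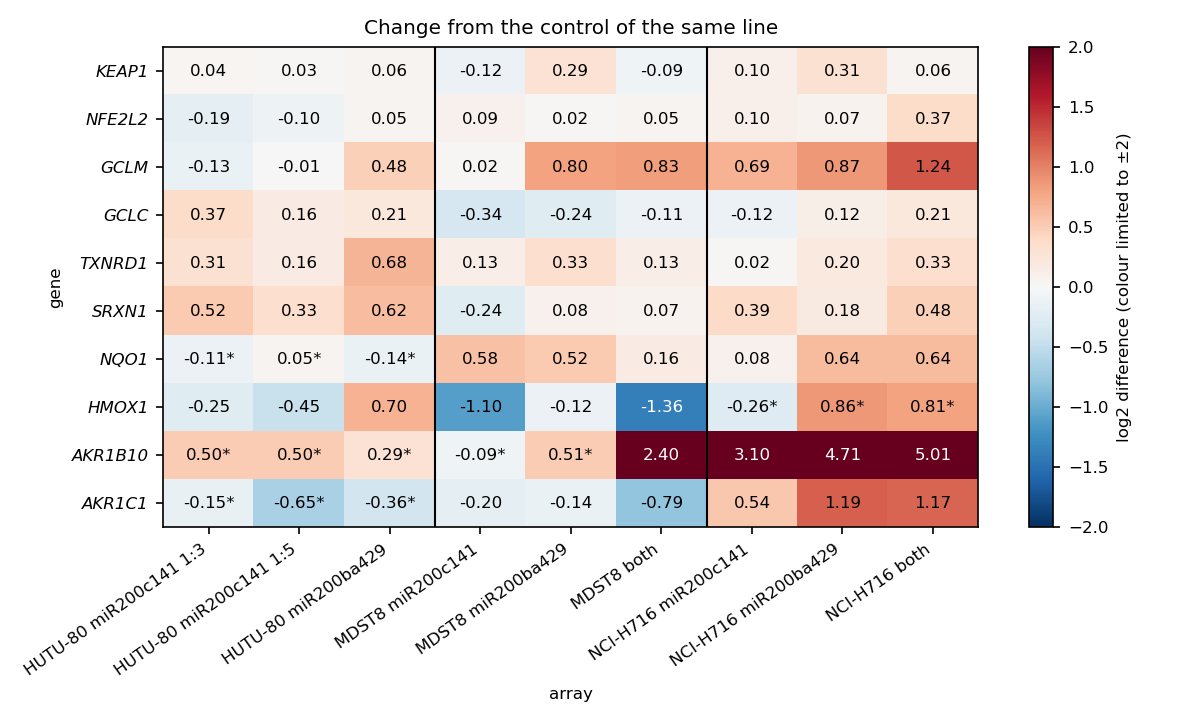
Change in log2 intensity from the control of the same line for each gene on the 9 construct arrays, as colour and number, with an asterisk where neither array of the pair was above background. TXNRD1 lies above 0 on all 9 arrays, and AKR1B10 reaches 3.10, 4.71 and 5.01 in NCI-H716.

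Among the regulators, KEAP1 did not pass the test against control with any construct. Its values were 8.64 and 8.63 with miR200c141 and 8.66 with miR200ba429 in HUTU-80, against 8.60 in the control. MDST8 gave 7.67 with miR200c141, 8.07 with miR200ba429 and 7.69 with both clusters, against 7.78 in the control. NCI-H716 gave 8.31 with miR200c141, 8.53 with miR200ba429 and 8.28 with both clusters, against 8.22 in the control. KEAP1 was therefore above the control of its line on all 3 arrays of miR200ba429, the construct that holds miR-200a, and below it only on the MDST8 arrays with miR200c141 and with both clusters. The fitted changes were 0.22 ± 0.12 with miR200ba429 (SE, 95% interval −0.03 to 0.48), 0.00 ± 0.12 with miR200c141 (−0.25 to 0.26) and −0.03 ± 0.13 with both clusters (−0.33 to 0.26). None passed the test, with an adjusted p of 0.9162 for both clusters. A single probe set names KEAP1, so no second one bears on it.

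NFE2L2 varied little. In HUTU-80 it stood at 10.58 and 10.67 with miR200c141 and 10.82 with miR200ba429, against 10.77 in the control. In MDST8 it stood at 10.24 with miR200c141, 10.17 with miR200ba429 and 10.20 with both clusters, against 10.15 in the control. In NCI-H716 it stood at 10.48 with miR200c141, 10.45 with miR200ba429 and 10.75 with both clusters, against 10.38 in the control. Only the HUTU-80 miR200c141 arrays lay below their control. The fitted change with both clusters was 0.18 ± 0.10 and did not pass the test, and those with miR200c141 (0.01 ± 0.09) and miR200ba429 (0.04 ± 0.09) were near 0. Of the other NFE2L2 probe sets, one was below background on all 12 arrays. One between 6.57 and 7.64 had 0.39 ± 0.19 with both clusters, and one between 6.27 and 8.34 had the opposite sign, −0.26 ± 0.22.

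GCLM had the smallest adjusted p of the 10 genes against control, with both clusters. In HUTU-80 it had 9.10 and 9.22 with miR200c141 and 9.71 with miR200ba429, against 9.23 in the control. In MDST8 it had 8.21 with miR200c141, 8.99 with miR200ba429 and 9.02 with both clusters, against 8.19 in the control. In NCI-H716 it had 9.79 with miR200c141, 9.97 with miR200ba429 and 10.34 with both clusters, against 9.10 in the control. Every array with miR200ba429, alone or with miR200c141, was above its control by 0.48 to 1.24. With miR200c141 alone, NCI-H716 was 0.69 above control, MDST8 0.02 above, and the HUTU-80 arrays 0.13 and 0.01 below.

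The fitted GCLM change with both clusters was 0.95 ± 0.16 (SE, 95% interval 0.59 to 1.31, adjusted p = 0.0094, 2 samples against 3 controls), higher on both arrays. With miR200ba429 it was 0.72 ± 0.14 (0.41 to 1.03), higher on 3 of 3 arrays and the sixth smallest p of all genes, but it did not pass the adjustment (adjusted p = 0.7688). With miR200c141 it was 0.21 ± 0.14. All 3 GCLM probe sets were above background on all 12 arrays, and each rose with both clusters when the 40914 probe sets were fitted separately, by 0.95, 0.82 and 0.94 (adjusted p = 0.0061, 0.0181 and 0.0115). With miR200ba429 the same probe sets had changes of 0.72, 0.59 and 0.77. In a fit limited to both clusters and control, the GCLM change was 1.03 with an adjusted p of 0.1072, and with the line left out of the model it was 0.84 with an adjusted p of 0.9991.

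**Figure D3:**
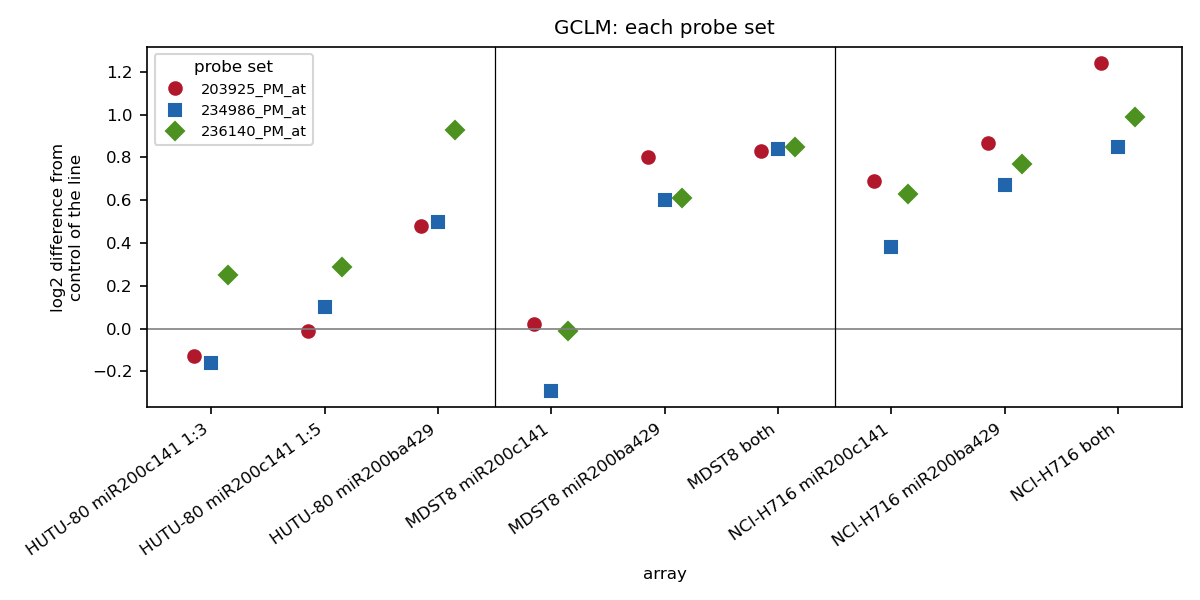
Change in log2 intensity from the control of the same line for the 3 GCLM probe sets on the 9 construct arrays. All 3 probe sets lie above 0 on every array with miR200ba429 or both clusters.

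The GCLM promoter is shown because GCLM was the member called on more than 1 probe set (RefSeq, GRCh38.p14, chr1:93909381-93909680, minus strand, 250 bases before the gene start and 50 after). Capitals mark the antioxidant response element core TGACNNNGC, here read on the opposite strand, which a search of both strands found once, starting 34 bases before the gene start.
GCLM: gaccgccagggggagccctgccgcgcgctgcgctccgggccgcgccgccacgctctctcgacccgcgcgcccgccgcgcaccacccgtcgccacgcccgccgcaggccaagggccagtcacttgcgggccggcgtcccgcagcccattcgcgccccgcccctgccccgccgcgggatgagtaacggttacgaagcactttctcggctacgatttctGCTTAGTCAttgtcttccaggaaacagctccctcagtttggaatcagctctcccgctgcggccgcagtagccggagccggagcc
Of 35116 promoter windows of this length, 13.3% held the core on either strand, as did 18.4% of the 15399 array genes with a window. Among the 8 members with a window it was present in 3, namely GCLM, TXNRD1 and KEAP1. These letters were not in the windows of NFE2L2, GCLC, NQO1, SRXN1 and AKR1C1, and windows for HMOX1 and AKR1B10 were not used here. Sequence outside the windows was not searched, so a core further from a gene start would be missed.

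GCLC, the partner of GCLM in the same enzyme, was not called against control with any construct. HUTU-80 had 8.23 and 8.01 with miR200c141 and 8.06 with miR200ba429, against 7.85 in the control, all above. MDST8 had 7.14 with miR200c141, 7.25 with miR200ba429 and 7.37 with both clusters, against 7.48 in the control, all below. NCI-H716 had 9.80 with miR200c141, 10.05 with miR200ba429 and 10.13 with both clusters, against 9.93 in the control, on both sides of it. The fitted GCLC changes were 0.13 ± 0.15 with both clusters, 0.03 ± 0.13 with miR200ba429 and −0.07 ± 0.13 with miR200c141, and none passed the test. Another GCLC probe set, between 7.13 and 10.11 and above background on all 12 arrays, had 0.22 ± 0.12 with miR200ba429. It differed in direction from the one used in MDST8 with both clusters (0.19 above control) and on the HUTU-80 1:3 array (0.04 below control). The remaining one was below background on all arrays.

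TXNRD1, which recycles oxidised thioredoxin with NADPH, was the only member above control on all 9 construct arrays, where 3.41% of all genes were. Its HUTU-80 values were 11.23 and 11.07 with miR200c141 and 11.59 with miR200ba429, against 10.91 in the control. Its MDST8 values were 11.85 with miR200c141, 12.04 with miR200ba429 and 11.85 with both clusters, against 11.71 in the control. Its NCI-H716 values were 11.17 with miR200c141, 11.35 with miR200ba429 and 11.48 with both clusters, against 11.15 in the control. The gaps ran from 0.02 in NCI-H716 with miR200c141 to 0.68 in HUTU-80 with miR200ba429. The fitted change with miR200ba429 was 0.40 ± 0.09 (95% interval 0.20 to 0.60, adjusted p = 0.7891), with both clusters 0.30 ± 0.11 (adjusted p = 0.1298) and with miR200c141 0.13 ± 0.09. None passed the test across all genes. The second TXNRD1 probe set was below background throughout.

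The TXNRD1 promoter window at the start of the annotated gene held the core at 2 places, starting 99 and 8 bases before the gene start, and is shown for comparison with GCLM (RefSeq, GRCh38.p14, chr12:104215529-104215828, plus strand, capitals as above).
TXNRD1: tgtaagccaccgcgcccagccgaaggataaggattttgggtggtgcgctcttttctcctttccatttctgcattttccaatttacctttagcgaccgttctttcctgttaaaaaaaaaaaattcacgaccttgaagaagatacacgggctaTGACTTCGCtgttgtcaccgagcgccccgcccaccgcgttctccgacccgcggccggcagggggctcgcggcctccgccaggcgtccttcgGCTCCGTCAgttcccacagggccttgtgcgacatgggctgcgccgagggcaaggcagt
The other TXNRD1 window held it once, 102 bases before its start, and one of the KEAP1 windows held it at 54 and 31 bases before its start. A match is a stretch of letters and was not measured as a binding site here.

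SRXN1 lay above control on 8 of 9 construct arrays. In HUTU-80 its level was 9.42 and 9.23 with miR200c141 and 9.53 with miR200ba429, against 8.91 in the control. In MDST8 its level was 9.47 with miR200c141, 9.80 with miR200ba429 and 9.78 with both clusters, against 9.71 in the control. In NCI-H716 its level was 8.88 with miR200c141, 8.66 with miR200ba429 and 8.96 with both clusters, against 8.48 in the control. The exception was MDST8 with miR200c141, 0.24 below. The SRXN1 changes were 0.37 ± 0.16 with both clusters (adjusted p = 0.2147), 0.29 ± 0.14 with miR200ba429 and 0.19 ± 0.14 with miR200c141, none past the threshold.

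NQO1 could be followed only in MDST8 and NCI-H716. HUTU-80 gave 3.86 and 4.03 with miR200c141 and 3.84 with miR200ba429, against 3.98 in the control, all at background. MDST8 gave 10.78 with miR200c141, 10.72 with miR200ba429 and 10.36 with both clusters, against 10.20 in the control. NCI-H716 gave 11.55 with miR200c141, 12.12 with miR200ba429 and 12.12 with both clusters, against 11.48 in the control. All 6 construct arrays of those lines were above their control on this probe set, by 0.08 to 0.64. The other NQO1 probe sets lay below control in MDST8 with both clusters, by 0.12 and 0.02, and above it on the remaining 5 arrays. Over all lines the fitted NQO1 changes were 0.34 ± 0.18 with miR200ba429, 0.28 ± 0.21 with both clusters and 0.21 ± 0.18 with miR200c141, and none passed the test.

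HMOX1 had its widest fitted difference between the single constructs and not against control. HUTU-80 held 9.31 and 9.10 with miR200c141 and 10.25 with miR200ba429, against 9.56 in the control. MDST8 held 7.33 with miR200c141, 8.32 with miR200ba429 and 7.07 with both clusters, against 8.43 in the control. NCI-H716 held 3.57 with miR200c141, 4.69 with miR200ba429 and 4.64 with both clusters, against 3.83 in the control, all at background. HMOX1 was below control on all 4 miR200c141 arrays, where 10.9% of all genes were, though the NCI-H716 one compares signals at background. The fitted changes were −0.57 ± 0.31 with miR200c141 (95% interval −1.25 to 0.10), 0.48 ± 0.31 with miR200ba429 and −0.21 ± 0.35 with both clusters, and none passed the test.

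AKR1B10 had the largest fitted change of the 10 genes, and its widest gaps to control were in NCI-H716. There it had 6.91 with miR200c141, 8.52 with miR200ba429 and 8.82 with both clusters, against 3.81 in the control. In MDST8 it had 3.68 with miR200c141, 4.28 with miR200ba429 and 6.18 with both clusters, against 3.77 in the control. In HUTU-80 it had 3.18 and 3.18 with miR200c141 and 2.97 with miR200ba429, against 2.68 in the control. Only the 3 NCI-H716 construct arrays and MDST8 with both clusters were above background, and no control was. The mean of the 3 NCI-H716 construct arrays was at least 6.29-fold the NCI-H716 control.

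With both clusters the mean AKR1B10 level was at least 4.19-fold that of the controls (mean log2 level 7.50 against 3.42, which is below background). This bound is for the mean and not for each line, since MDST8 at 6.18 lay nearer background than NCI-H716 at 8.82. The control mean includes HUTU-80, which had no cells with both clusters. The fitted change in limma was 3.34 ± 0.76 (95% interval 1.66 to 5.01, adjusted p = 0.0295), higher on 2 of 2 arrays. The fitted size rests on control signals at background and is not a fold of mRNA. The changes with single clusters did not pass the test, at 1.84 ± 0.66 with miR200ba429 (0.38 to 3.29) and 1.17 ± 0.66 with miR200c141 (−0.28 to 2.62). The call for both clusters was lost when the NCI-H716 control was left out (2.04, adjusted p = 0.0514), when either array with both clusters was left out (3.40 with adjusted p = 0.1133 without MDST8 and 3.27 with 0.0784 without NCI-H716), and without all arrays of HUTU-80 (3.71, adjusted p = 0.0570) or of MDST8 (3.83, adjusted p = 0.0570). The probe set for AKR1B10, its only one, carries a suffix for probes that may match transcripts of related genes. In NCI-H716, the summed log2 level of the 10 gut epithelial markers was 75.1 in the control. It was 90.8 with miR200c141, 85.5 with miR200ba429 and 91.8 with both clusters. LYZ, which is made by myeloid cells and by Paneth cells of the gut, was at 10.14, 9.45 and 10.65 in the same order, against 7.97 in the control, while the leukocyte marker PTPRC stayed below background. In HUTU-80, where AKR1B10 was not above background, the marker sum was also higher with a construct. It was 54.4 and 52.4 with miR200c141 and 50.9 with miR200ba429, against 40.9 in the control. In MDST8 the sum was 43.8 with miR200c141, 43.6 with miR200ba429 and 44.9 with both clusters, against 41.7 in the control. The part of these markers in the AKR1B10 result was not tested. In bulk RNA a change in the share of cells expressing a gene cannot be told apart from a change per cell.

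AKR1C1 differed in direction between lines. In NCI-H716 it was at 11.65 with miR200c141, 12.30 with miR200ba429 and 12.28 with both clusters, against 11.11 in the control, all above. In MDST8 it was at 6.92 with miR200c141, 6.98 with miR200ba429 and 6.34 with both clusters, against 7.12 in the control, all below. In HUTU-80 it was at 4.20 and 3.70 with miR200c141 and 3.99 with miR200ba429, against 4.35 in the control, all at background. The fitted changes over the lines were accordingly near 0, at 0.03 ± 0.35 with both clusters, 0.23 ± 0.30 with miR200ba429 and −0.02 ± 0.30 with miR200c141. A second AKR1C1 probe set, between 3.44 and 12.10 and above background on the same number of arrays, had −0.25 ± 0.37 with both clusters. The other 3 were above background on 2 arrays or none. The probes of AKR1C1 may also match AKR1C2, which is nearly identical, so the signal cannot be given to AKR1C1 alone.

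Whether the response to any construct differed between lines was tested with an interaction term. The smallest adjusted p among the 10 genes were 0.9031 for AKR1C1 and 0.9243 for AKR1B10, and neither passed. One gene of 19774 did, or 0.00506% of those tested. The line-specific directions of AKR1C1 and the concentration of AKR1B10 in NCI-H716 are therefore descriptions of these arrays. Taken over any construct, limma called 0 of the 10 genes and 0% of all genes. Unadjusted p fell under 0.05 for 4 of them (9.36% of all genes), namely GCLM (0.58 ± 0.20), TXNRD1 (0.27 ± 0.10), SRXN1 (0.27 ± 0.12) and AKR1B10 (1.93 ± 0.69).

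**Figure D4:**
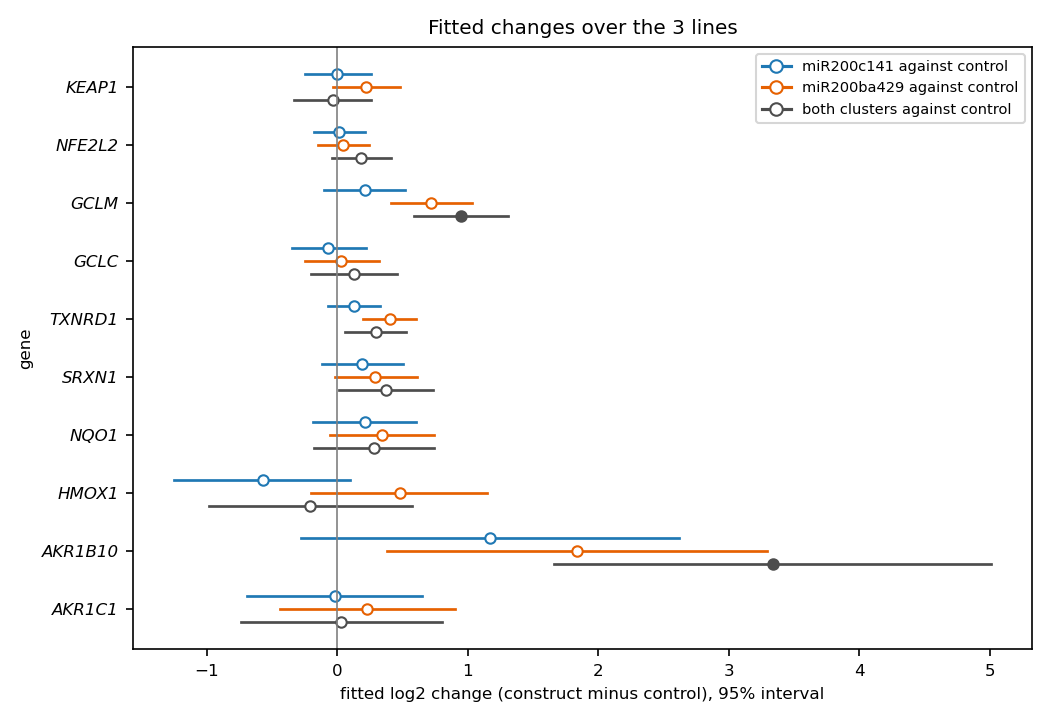
Fitted log2 change against control with its 95% interval for each gene with miR200c141, miR200ba429 and both clusters. The intervals of GCLM and AKR1B10 with both clusters lie at 0.59 to 1.31 and 1.66 to 5.01.

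With miR200ba429 all 10 fitted changes were positive, against 48.8% of all genes, with a median of 0.318 beside −0.005 for all genes. The 10 genes were chosen with earlier results of these data known, so such counts describe them and are not a test. Under the 22 alternative settings the sign turned in 2 for NFE2L2 (lowest −0.01), 4 for GCLC (lowest −0.09) and 2 for AKR1C1 (lowest −0.25). On every one of the 3 miR200ba429 arrays, KEAP1, NFE2L2, GCLM, TXNRD1, SRXN1 and AKR1B10 were above control, 6 of 10 genes, while 13.7% of all genes were. AKR1B10 was not above background on the HUTU-80 and MDST8 arrays of that group, nor in their controls, so its direction in those lines compares signals at background. With both clusters 8 of 10 changes were positive (50.1% of all genes), with a median of 0.233 beside 0.000, and NFE2L2, GCLM, NQO1, TXNRD1, SRXN1 and AKR1B10 were above control on both arrays (28.9% of all genes), NQO1 only on the probe set used. Under the 22 alternative settings the sign turned in some for KEAP1 (2), NQO1 (2), HMOX1 (3) and AKR1C1 (3). With miR200c141, 7 of 10 were positive (50.8% of all genes), with a median of 0.072 beside 0.003, and only TXNRD1 was above control on all 4 arrays (11.5% of all genes). The signs with miR200c141 also turned in some of the 22 settings for KEAP1 (5), NFE2L2 (7), GCLM (1), GCLC (2) and AKR1C1 (7). By array, NCI-H716 had 10 of 10 genes above control with miR200ba429 (47.4% of all genes) and with both clusters (48.2% of all genes), with median changes of 0.48 and 0.56 beside −0.02 for all genes on each. HMOX1, at background on every NCI-H716 array, is among those 10. MDST8 with miR200c141 had the fewest, 4 of 10 genes (49.4% of all genes) with a median of −0.10.

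Compared directly, all 10 genes had a lower fitted value with miR200c141 than with miR200ba429, where 47.4% of all genes did. Under the 22 alternative settings that direction turned in 3 for NFE2L2 (up to 0.05), 2 for NQO1 (up to 0.08), 3 for SRXN1 (up to 0.03) and 1 for AKR1B10 (up to 0.19). None passed the adjustment, nor did any of the 19774 genes (0%), and at an unadjusted p under 0.05 there were 3 of 10 (3.57% of all genes). Those were HMOX1 at −1.05 ± 0.31 (95% interval −1.72 to −0.38), GCLM at −0.50 ± 0.14 and TXNRD1 at −0.27 ± 0.09, each with an adjusted p of 1.0000, as miR200c141 minus miR200ba429. KEAP1 stood at −0.22 ± 0.12. The HMOX1 difference includes NCI-H716, where both constructs left it at background. The count of lower genes likewise includes signals at background, for NQO1 and AKR1C1 in HUTU-80 and for AKR1B10 in HUTU-80 and MDST8. Both clusters against the single clusters gave 0 calls among the 10 genes, with 1.66% of all genes called. GCLM was 0.48 ± 0.15 higher with both clusters (adjusted p = 0.1347) and AKR1B10 1.83 ± 0.69 (adjusted p = 0.2176), neither past the threshold. Without NCI-H716 the AKR1B10 difference was 2.17 with an adjusted p of 0.0113, but that fit sets 1 array with both clusters, assumed to vary like the other groups, against single-cluster arrays that were all at background.

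Other genes of the pathway were read from lists of regulators, glutathione and thioredoxin genes, NADPH supply, detoxification and iron and haem genes, none of which overlaps the 10. With both clusters, 1 of 10 glutathione and thioredoxin genes rose and none fell, and 0 of 9 regulators, 0 of 5 NADPH genes, 0 of 14 detoxification genes and 0 of 4 iron and haem genes were called, where 6.14% of all genes were called and 2.33% called higher. The list medians were −0.044 for glutathione and thioredoxin, 0.047 for regulators, −0.225 for NADPH supply, 0.017 for detoxification and −0.016 for iron and haem, beside 0.000 for all genes. With single clusters no gene of these lists was called, where 0% of all genes were called with either. MAFK, AKR1B1 and FTH1 were not analysed here.

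The called gene was TXN, thioredoxin itself, the substrate of TXNRD1. With both clusters its MDST8 array had 12.55, against 12.21 in the MDST8 control, and its NCI-H716 array had 12.39, against 11.93 in the NCI-H716 control. Both arrays were above every control array, HUTU-80 included, which was at 11.84. Its change was 0.42 ± 0.07 (adjusted p = 0.0085), which did not pass with the mean of all TXN probe sets (0.29, adjusted p = 0.1387), without the trend of variance on level (0.42, adjusted p = 0.0930), without NCI-H716 (0.39, adjusted p = 0.0900), with the line left out of the model (0.48, adjusted p = 0.9991) or with only the groups compared (0.40, adjusted p = 0.2086). TXN was also above control on the other 7 construct arrays, by 0.13 to 0.39.

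Among the regulators, BACH1, the competing repressor, had a change of 0.50 ± 0.17 with both clusters (adjusted p = 0.1066). SQSTM1, which binds KEAP1 and marks it for autophagy, had 0.35 ± 0.16 (adjusted p = 0.2423). Of the detoxification genes, ALDH3A1, an aldehyde dehydrogenase, had 1.42 ± 0.44 with both clusters (adjusted p = 0.0862), with NCI-H716 at 6.84 against 4.19 in its control. AKR1C2 had −0.70 ± 0.34 (adjusted p = 0.2558), and its 2 arrays went opposite ways. MDST8 was at 5.08 against 6.65 in its control, and NCI-H716 at 11.94 against 11.57 in its control. The pentose phosphate enzymes PGD, which makes NADPH, and TALDO1 had changes of −0.31 ± 0.13 and −0.23 ± 0.11. FECH, which inserts iron to make haem, had −0.26 ± 0.18, and BLVRA, which reduces the biliverdin that HMOX1 makes, −0.07 ± 0.08. None of these passed the test.

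With miR200ba429, PIR, an iron-binding nuclear protein known as an NRF2 target, had 0.60 ± 0.17 (adjusted p = 0.7891), and the cystine transporter SLC7A11 had 0.55 ± 0.32. GPX2, the gastrointestinal glutathione peroxidase, had 1.65 ± 0.66 with miR200ba429 and 1.20 ± 0.66 with miR200c141. GPX2 was above background only in NCI-H716, at 10.73 with miR200c141, 11.07 with miR200ba429 and 11.38 with both clusters, against 7.13 in the control. With miR200c141, MAFF, a small MAF protein, had −0.41 ± 0.16 (adjusted p = 0.7135). The other genes that the naming rule gave had changes of 0.57 ± 0.22 for ABCC2, 0.16 ± 0.14 for SQSTM1, 0.12 ± 0.05 for FTL, −0.09 ± 0.07 for BLVRA, −0.12 ± 0.11 for PGD, −0.17 ± 0.13 for IDH1 and −0.22 ± 0.22 for BTRC with miR200ba429. With miR200c141 they were 0.33 ± 0.33 for ABCC3, 0.11 ± 0.14 for BACH1, 0.07 ± 0.22 for ME1, −0.06 ± 0.15 for FECH, −0.10 ± 0.07 for BLVRA, −0.14 ± 0.11 for PGD, −0.29 ± 0.15 for GLRX and −0.32 ± 0.23 for GSTM3. None of these single-cluster changes passed the test across all genes.

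Between constructs, miR200c141 minus miR200ba429 was −0.58 ± 0.17 for PIR, −0.45 ± 0.17 for AKR1C3 and −0.33 ± 0.16 for MAFF. Both clusters minus the single clusters was 0.82 ± 0.22 for TXNIP, the inhibitor of thioredoxin (adjusted p = 0.0988), 1.37 ± 0.40 for ALDH3A1 (adjusted p = 0.1179) and 0.53 ± 0.16 for MAFF (adjusted p = 0.1384). Neither comparison called a gene of these lists, where 0% and 1.66% of all genes were called, respectively.

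Genes with a like pattern over the 12 arrays were ranked by Pearson correlation of levels centred on the mean of each line, among 9372 genes above background on enough arrays. For AKR1B10 these were ZNF562 (r = 0.976), SLC4A11 (0.930) and PAX8-AS1 (0.910). AKR1B10 itself was above background on only 4 of the 12 arrays, fewer than the 6 asked of the ranked genes. All correlations of AKR1B10 given here therefore rest partly on signals at background. For GCLM they were SPPL2A (0.911), SLC35A1 (0.910) and CREBZF (0.903). For KEAP1 they were PSMD12 (0.895), PIR (0.894) and PTGES3 (0.875). Within the 10 genes the highest values were 0.81 between GCLM and AKR1B10 and 0.71 between TXNRD1 and SRXN1. The correlations describe 12 arrays that share 3 lines and their controls, and carry no test.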

How the data were processed

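Biotin-labelled RNA of 12 samples from 3 lines was hybridised to Affymetrix U133 Plus arrays with perfect-match probes. For each probe set the authors deposited a log2 intensity from RMA, per the submitters' processing notes. RMA equalises the distributions of arrays, so a shift common to all genes would not be seen. The values were used unchanged, with array medians of 3.595 to 3.662. Across genes, the lowest correlation within a line was 0.978 and the highest between lines 0.885. The number of arrays limits the precision.

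Of 54715 probe sets, 102 were controls and 40914 named 1 gene through the platform annotation, 864 named several and 12835 none. Of the symbols, 40858 matched RefSeq by Entrez number. The probe set with the highest mean stood for each of 19774 genes. Groups came from sample titles. The pair of HUTU-80 miR200c141 arrays differed by at most 0.50 in the 10 genes and was averaged. Comparisons used limma 3.58.1 in R 4.3.3 with line and group as terms, a trend of variance on level, two-sided p, and adjustment after Benjamini and Hochberg over all 19774 genes, with a threshold of 0.05. Line pairs the samples through the model. The procedure was tested on simulated data with 200 changed genes of 19774. For both clusters against control it recovered 50.0% of changes of 1 log2 and 91.0% of changes of 2 log2, with 6 false calls. Recovery of changes of 1 log2 was 76.0% for miR200c141 and 71.0% for miR200ba429 against control. Where one side was below background on every array, a fold is given as a bound, with dim values raised to the background level. The members, gene lists, tests and alternatives were chosen with earlier results of these data known. From each wider list, called genes are named, and where there were none, the 2 of largest change among those above background on an array. The count of pathway genes covers those lists alone, with no set test.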

Additional observations from a re-analysis of the deposited data

How the results depend on the processing

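Of the 10 genes, GCLM and AKR1B10 were called with both clusters. That count was 1 with the mean of all probe sets and 1 with no trend of variance, where AKR1B10 had adjusted p of 0.0597 and 0.0701. It was 0 with no replicate block, in other words with the line left out of the model, and 0 with only the groups compared. It ran from 1 to 2 when arrays or lines were left out, AKR1B10 being the gene lost, while GCLM kept its call with changes of 0.76 to 1.05 and adjusted p up to 0.0479. Over all genes the count for both clusters was 1214. It was 662 with the mean of all probe sets, 679 with no trend, 0 without the line, 19 with only the groups compared, and 362 to 1676 when arrays or lines were left out. The lowest count came without HUTU-80, and those without the NCI-H716 control (376), the MDST8 array with both clusters (477), the HUTU-80 control (634) and the MDST8 control (759) also fell by over 1.5 times. Both clusters against single clusters gave 0 calls among the 10 genes, and 0 to 1 when arrays or lines were left out, the 1 being AKR1B10 without NCI-H716, where both clusters had 1 array. The counts of called members for the single constructs, any construct and the constructs against each other were the same in every alternative run. So was the count for the difference between lines in response. For the difference between lines in level, the count stayed within 1.5 times of the main count. The difference between lines in response could not be fitted without any of the 3 control arrays and was not run there. A fit of every probe set separately was added after seeing the data. Signal over background limits AKR1B10 in controls, NQO1 and AKR1C1 in HUTU-80, and HMOX1 in NCI-H716.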
